A study of Mus musculus with 2 samples.

Results

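The AP-1 family was followed here through its 7 Fos and Jun genes, Fos, Fosb, Fosl1, Fosl2, Jun, Junb and Jund. A gene was a member when non-control spots on both arrays carried exactly its name, which gave 7 of the 18191 coding gene names on the array, with 9 probes and 27 spots. Of these spots, 24 were used and 3 that the scanner software marked as outliers were left out, 1 of Fos and 2 of Jun.

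Fos and Jun proteins are basic leucine zipper transcription factors. A Fos protein binds DNA only when paired with a Jun protein or another zipper partner, whereas Jun proteins also pair with each other, and the pairs bind the AP-1 site TGACTCA or the related cyclic AMP response element. Fos, Fosb, Jun and Junb are immediate early genes, whose short-lived mRNAs appear within minutes of serum, growth factors or stress in fibroblasts and decay through AU-rich sequences, whereas Jund mRNA is made steadily. Fosl1 and Fosl2 encode Fra-1 and Fra-2, Fos proteins without the strong activation domain of c-Fos.

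The samples were 2 RNA pools from NIH3T3, an established line of mouse embryonic fibroblasts. The control cells were untreated, and the thapsigargin cells received 10 µM thapsigargin for 3 h, which blocks the calcium pump of the endoplasmic reticulum and so stresses that organelle. Both were grown in medium with 10% serum on 4 plates and carried no other agent or allele, apart from the cycloheximide that the methods add before lysis to hold ribosomes on the mRNA. Lysates were run on sucrose gradients of 10 to 40%, and fractions were combined to give polysomal RNA (P, labelled with Cy3) and free plus monosomal RNA (FM, labelled with Cy5). RNA of 3 preparations was pooled per condition before hybridisation to 1 array, so there was 1 sample per group, no replicate check and no p-value. The SD over spots given below is the error within an array and not that between cultures.

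A dye signal was the mean spot signal minus the local background, in arbitrary units. The log2 ratio of P to FM signal (log2 P/FM) was the study's measure of translation efficiency, and A, the mean of both log2 signals, its measure of abundance. The scanner software marks each spot as well above background or not in each channel, and a signal that is not gives only a bound. Between 42.5% and 46.3% of spots were well above background in each channel of each array, and no spot was saturated. All changes are thapsigargin minus control. Changes of a single channel are not at equal RNA input, since the study labelled the fractions in the proportions found in each condition. Of the coding gene names, 9431 had A above 4.5 on both arrays and formed the comparison, with 6 of the 7 members. Fosb did not pass, with an A of 4.0 in control cells. Since A is a mean of both fractions, fewer cells with an mRNA and less of it per cell cannot be told apart.

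The arrays as a whole set the frame for the members. The median change over the genes compared was -0.69 in log2 P/FM, made up of -0.04 in the log2 P signal and 0.65 in the log2 FM signal, and the median change in A was 0.30. Of 8 fibroblast markers, 8 were among the genes compared, against 0 of 4 epithelial, 0 of 3 endothelial and 0 of 3 muscle markers and 1 of 3 blood markers. All 4 signals were well above background in 4 fibroblast markers and in the muscle marker Des, and in none of the epithelial, endothelial and blood markers. All 6 genes fixed as a check of the treatment, targets of the unfolded protein response, were higher in A by 1.92 to 4.19. The 10 control probes for spike-in RNAs shifted by a median of -2.44 in log2 P/FM between the arrays. The direction of a change near the median thus depends on whether the arrays are scaled to them. The study's methods do not state whether, when or in what amounts spike-in RNA was added.

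Each member was read at 1 or 2 places, and what the probes share bears on how far their values are independent. The first 30 bases of the probes on which the results turn are shown in the sense of the mRNA, with any ATTTA, the core of AU-rich decay elements, in capitals. Positions are those of the whole probe of 60 bases on mm9. The Fosl2 probes lie apart in the gene and gave different answers, whereas the Junb probes overlap.
Fos, chr12:86817900-86817959, plus strand: ggactttattttccagtagatagaaatcaa
Fosl2, first probe, chr5:32455088-32455147, plus strand: gattgctgagctgcagaaggagaaggagaa
Fosl2, second probe, chr5:32459624-32459683, plus strand: ttgaggaagaaaatattcagctttgtataa
Jun, chr4:94715864-94715923, minus strand: tttataatcataggaaagATTTAgtaatta
Junb, the 22 bases that both of its probes hold, minus strand: ttcgtgtctaaagtctatttta
Jund, chr8:73224436-73224495, plus strand: ttttgctacgagtccacattcctgttccgt

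The Jun probe was the only member probe with an ATTTA, a motif held by 9.16% of the 41174 probes of the array. The probes of Junb span chr8:87500843-87500902 and chr8:87500881-87500940, so their values are not independent readings. The remaining members had 1 probe each, at chr7:19888477-19888536 on the minus strand for Fosb and chr19:5455496-5455555 on the plus strand for Fosl1.

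The 4 members whose log2 P/FM was higher by more than 1 after thapsigargin were Fos, Fosb, Jun and Junb. The 120 bases upstream of their start sites (RefSeq, GRCm38.p6) are shown because these members passed that change. They did not change alike in A, with -1.46 for Jun and 1.39 for Junb. Whether the upstream bases bear on the ratio was not tested. Capitals mark TGACG, the core of the cyclic AMP response element, its relative TGACATCA, which Jun proteins can bind, and the general promoter words TATAAA, the TATA box, and CCAAT, the box of that name.
Fos, chr12:85473770-85473889, plus strand: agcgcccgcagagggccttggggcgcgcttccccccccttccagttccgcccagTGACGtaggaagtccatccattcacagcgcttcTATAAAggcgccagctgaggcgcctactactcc
Fosb, chr7:19310046-19310165, minus strand: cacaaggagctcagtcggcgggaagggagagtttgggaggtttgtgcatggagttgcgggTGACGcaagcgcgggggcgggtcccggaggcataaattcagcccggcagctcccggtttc
Jun, chr4:95052223-95052342, minus strand: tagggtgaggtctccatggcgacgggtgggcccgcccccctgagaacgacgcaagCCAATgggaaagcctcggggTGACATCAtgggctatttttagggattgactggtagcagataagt
Junb, chr8:84978749-84978868, minus strand: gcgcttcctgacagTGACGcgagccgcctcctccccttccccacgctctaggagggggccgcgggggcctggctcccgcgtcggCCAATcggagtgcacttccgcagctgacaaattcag

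In the 250 bases upstream, searched on both strands, Fos held TGACG at -129 to -125 and at -66 to -62 from the start site, Fosb at -60 to -56 and Junb at -106 to -102. Of 32851 promoters in the table, 17.8% hold these letters. Jun held TGACATCA at -45 to -38, which 2.93% of promoters hold. TATAAA stood in Fos only (12.4% of promoters), CCAAT in Jun and Junb (33.8%), and TGACTCA in none of the 6 members with an entry (4.46% of promoters). These are matches of letters and not binding data. Fosl2 and Jund held none of the 5 words, and Fosl1 had no entry.

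In growing cells, the immediate early members lay toward the FM side. Of the 7 genes, 4 had log2 P/FM below 0 in control cells, namely Fos, Jun, Fosb and Junb, and after thapsigargin 6 lay above 0. The exception after treatment was Jund, which lay above 0 as well, at 0.81, under spike-in scaling. The median of the genes compared was 0.26 in control cells and -0.37 after thapsigargin. In control cells 0.679%, 5.19% and 11.7% of genes lay below Fos, Jun and Junb. After thapsigargin from 78.5% (Fos) to 96.0% (Fosl2) lay below the members above 0. Of the 6 members compared, log2 P/FM was higher by 1 or more in 3 (Fos, Jun and Junb), where 9.5% of all genes compared were, and lower by 1 or more in 1 (Jund), where 39.9% were. The median change over these 6 was 1.34, beside -0.69 over all genes. By the study's classes, 3 of the 6 were inducible (a gain of at least 1 from a control value no higher than 0, a class of 8.58% of genes), 1 was sensitive (a change of -0.8 or lower, 46.4% of genes) and 0 were resistant (at least 0.8 on both arrays, 2.58% of genes). A was higher by 1 or more in 2 of the 6, Fosl1 and Junb (8.97% of genes), and lower by 1 or more in Jun (1.02% of genes).

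**Figure D1:**
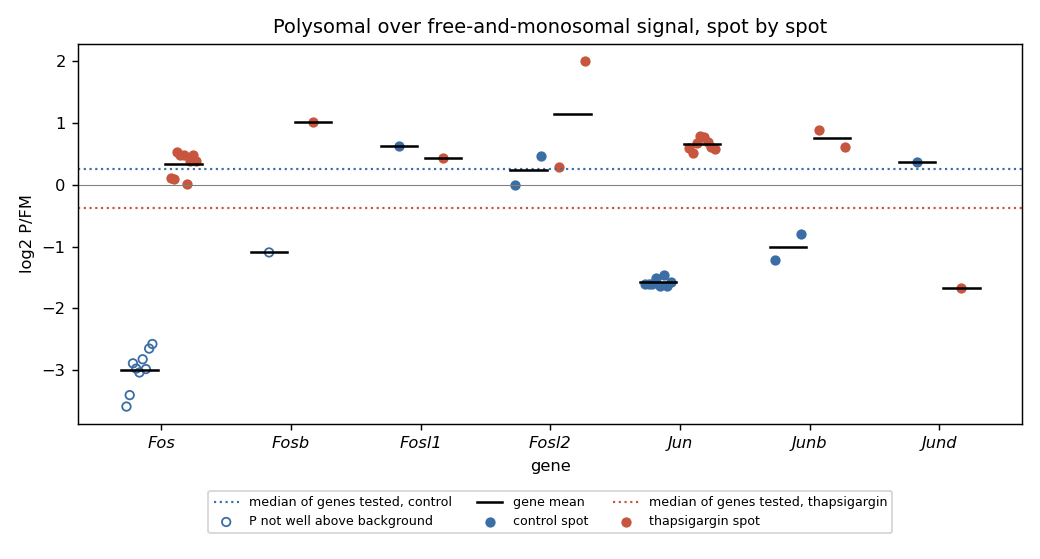
The log2 ratio of polysomal (P) to free and monosomal (FM) signal of each spot used, in control (blue) and thapsigargin-treated (red) NIH3T3 cells, with the mean per gene as a black bar and the median of the 9431 genes compared as dotted lines. Open circles had a P signal not well above background. The red points of Fos, Fosb, Jun and Junb lie above the blue ones and above 0, and the red point of Jund lies at -1.66.

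Fos encodes c-Fos, the archetype of the family. In control cells its P signal ranged over the 9 spots from 13.5 to 22.7 with a median of 18.6, and in none of them was it well above background. Its FM signal in the same spots was well above background, from 133 to 162 with a median of 144. After thapsigargin the P signal lay between 64.1 and 85.8 (median 77.7) and the FM signal between 51.5 and 67.6 (median 59.4), all well above background. The ranges of the spots did not overlap between the arrays in either channel. They hold the error within an array only, and how many other probes show such a gap was not counted. Fos mRNA was thus detected in the FM fraction alone of control cells and in both fractions after treatment.

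In log2 P/FM, Fos as measured stood at -2.99 ± 0.33 (SD over 9 spots of 1 array) in control cells, and 0.679% of the genes compared lay below it. With thapsigargin it was 0.33 ± 0.20 (SD, 9 spots). The change was 3.32 ± 0.29, with single spots from 2.83 to 3.70, and 99.9% of genes changed by less. As measured, P was 4.19-fold and the ratio 9.98-fold higher, but the control P signal was not well above background, so these values depend on the limit taken. With the limit at the 1st percentile of signals well above background, control log2 P/FM was -2.87 or lower and its change at least 3.20. With normexp background correction the change was 1.11. Its FM signal was 2.38-fold lower, a log2 change of -1.25, which 0.891% of genes lay below. A moved by 0.41, close to the 0.30 of the median gene.

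Fosb encodes a close relative of c-Fos and was the dimmest member. Its single spot gave a P signal of 11.0 in control cells, not well above background, and 84.5 after thapsigargin. The FM signal was 23.4 and then 42.0. Against the lowest signal among probes well above background, P was at least 6.34-fold higher, the ratio of P to FM at least 3.53-fold higher, and A higher by at least 1.75. These values depend on the limit taken. With the limit at the 1st percentile of signals well above background, the change in log2 P/FM was at least 1.26 and that in A at least 1.47. With no background subtraction the change in log2 P/FM was 1.02. Probes as dim as Fosb with replicate spots had a median SD of 0.76 in the change of log2 P/FM, and Fosb itself had 1 spot, so its change of 2.10 as measured has no error of its own.

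Fosl1, which encodes Fra-1, was higher in both fractions, as Fosb was, but by similar folds in each. P went from 1061 to 2900 and FM from 685 to 2137, or 2.73-fold and 3.12-fold. The log2 P/FM was 0.63 in control cells and 0.44 with thapsigargin, a change of -0.19, smaller than the median SD of 0.53 found between probes of one gene over 4983 genes. A was higher by 1.55, and 98.5% of genes changed by less in A. On the unscaled signals the Fosl1 ratio thus stayed near its starting value while that of the median gene went down. Relative to that gene the change was 0.50, also smaller than that SD, and it ran from -0.30 to 1.32 over 15 alternatives. With spike-in scaling Fosl1 changed by 2.28 and the median gene by 1.78.

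Fosl2, which encodes Fra-2, depended on the probe. The first probe had P signals of 40.5 and 46.1 and FM signals of 40.3 and 37.6, in control and thapsigargin cells. The second had P signals of 74.1 and 224, with FM at 53.9 and 56.1. The change in log2 P/FM was 0.29 at the first and 1.54 at the second, so the mean of 0.91 carries an SD of 0.88 (2 probes), and only the second passes 1. Which transcripts each of these distant probes reads was not tested. At both probes the FM signal hardly moved, with log2 changes of -0.10 and 0.06.

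Jun encodes c-Jun, a partner through which Fos proteins bind DNA. In control cells the P signal of its 8 spots ran from 380 to 432 (median 423) and the FM signal from 1160 to 1338 (median 1201). After thapsigargin P ran from 281 to 357 (median 332) and FM from 186 to 237 (median 206). The ranges of these 8 spots did not overlap between the arrays, closely so for P and widely for FM. Here too the share of other probes with such a gap was not counted. With the 2 outlier spots counted, at 306 and 311 in control P, the P ranges overlapped and those of FM did not. The P signal was 0.789 of its control level, a log2 change of -0.34, whereas FM was 5.95-fold lower, a log2 change of -2.57. Of the genes compared, 0.0212% had a lower change in FM.

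The ratio of Jun followed from this. Its log2 P/FM was -1.58 ± 0.06 (SD, 8 spots) in control cells and 0.65 ± 0.10 with thapsigargin, a change of 2.23 ± 0.09. The ratio was 4.70-fold higher, and 99.0% of genes changed by less. Jun and Fos were the members whose log2 FM signal changed by -1 or lower, beside a median change of 0.65 over all genes. Unlike that of Fos as measured, the Jun P signal did not go up, and A changed by -1.46, with 0.223% of genes lower. Under scaling to the spike-in probes the P change of Jun was 1.17, so the direction of the P signal by itself depends on the scale.

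Junb encodes JunB, which can oppose c-Jun at some sites. Its first probe had P signals of 3633 and 22618 and FM signals of 8469 and 12217, in control and thapsigargin cells. The second had P at 2208 and 8259 and FM at 3844 and 5378. Both showed the same pattern, with a larger gain in P than in FM. On average P was 4.83-fold and FM 1.42-fold higher. The log2 P/FM was -1.01 and then 0.75, a change of 1.76 ± 0.49 (SD over the 2 overlapping probes, 2.11 and 1.42), which exceeded that of 97.2% of genes. A was higher by 1.39. Junb was the single member among the 6 compared with both log2 P/FM and A higher by 1 or more, as were 1.84% of all genes.

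Jund encodes JunD, the steadily made member. The P signal of its single spot was 3465 in control cells and 1053 with thapsigargin, 3.29-fold lower, while FM was 2697 and then 3335. Its log2 P/FM was 0.36 and then -1.66, a change of -2.02, and A changed by -0.71. On the unscaled signals, Jund was alone among the 7 in having less P and more FM signal. Relative to the median gene the change was -1.33, and 12.4% of genes changed lower still. Scaled to the spike-in probes it was 0.45 instead of -2.02, still under the median of 1.78 that all genes then had. Over the 15 alternatives that rescale or refilter the arrays, its distance from the median of all genes ran from -2.25 to -0.48.

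**Figure D2:**
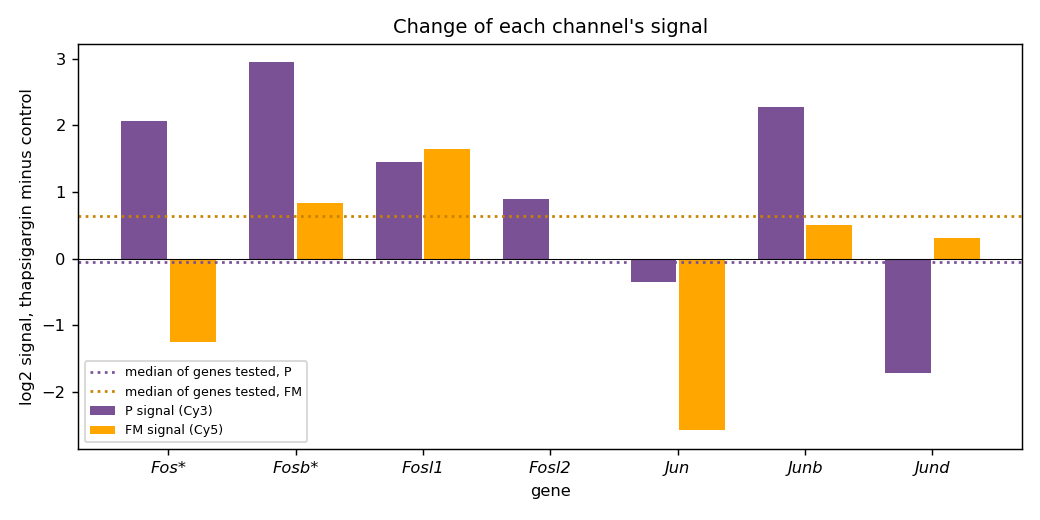
Change of the log2 P signal (purple) and log2 FM signal (orange) of each member, thapsigargin minus control, with the medians of all genes compared as dotted lines (-0.04 for P and 0.65 for FM). Asterisks mark genes whose control P signal was not well above background. Their change of P was 2.07 as measured for Fos and at least 2.66 against the lowest detected signal for Fosb. With normexp background correction these changes were -0.72 and -0.59. Jun stands out by an FM bar of -2.57 and Jund by a P bar of -1.72.

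Side by side and as measured, the members were spread out before treatment, and all but Jund were close together after it. In control cells the order of log2 P/FM was Fosl1, Jund, Fosl2, Junb, Jun and Fos, from 0.63 to -2.99 as measured. Fosb has no place in this order, since its control value is known only as -0.81 or lower. With the limit at the 1st percentile of signals well above background, that bound was -0.25. Among neighbours, Fosl1 and Jund, and Jund and Fosl2, differed by less than 0.46, the median SD between probes of one gene, and Junb exceeded Jun by little more (0.57). After thapsigargin the order was Fosl2, Fosb, Junb, Jun, Fosl1, Fos and Jund. The first 6 of these ran from 1.14 to 0.33, with every neighbouring pair closer than the median SD between probes of 0.41, and only Jund stood apart, 1.99 below Fos. The control spread depends on the background method, since the control P signal of Fos was not well above background. With normexp the control values ran from -1.34 (Jun) to 0.39 (Fosl1). Those after thapsigargin then ran from -1.61 (Jund) to 0.75 (Junb), so the members with Jund were not closer together.

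The order of the changes in log2 P/FM was Fos, Jun, Junb, Fosl2, Fosl1 and Jund, again without Fosb. Its change was at least 1.82, or 1.26 with the limit at the 1st percentile of signals well above background. Jun and Junb could not be ranked, since they differed by 0.47 against a median SD between probes of 0.53. The remaining neighbours differed by 0.85 to 1.83. In A the order was Fosl1, Junb, Fosl2, Fos, Jund and Jun. Fosb was higher in A by at least 1.75, or 1.47 with the limit at the 1st percentile. The pairs Fosl1 and Junb, and Fosl2 and Fos, were closer than the median SD of 0.28. The order of the changes in A was thus unlike that of the changes in the ratio, with Jun second in the ratio and last in A.

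The channels show how alike the ratios were reached from different sides. The P signal was at least 2-fold higher in Fos, Fosb, Fosl1 and Junb, of which Fosb did not pass the limit on A. Of the genes compared, 98.4%, 99.7%, 94.2% and 99.0% changed by less in P than these as measured. The FM signal was at least 2-fold lower in Fos and Jun, with 0.891% and 0.0212% of genes lower. The gain in ratio of Junb and Fosb came with a gain in P, that of Jun with a loss in FM, and that of Fos with both. These directions of single channels are those of the signals as measured, and some of them changed with other processing. The log2 P changes of Fos and Fosb were -0.72 and -0.59 with normexp background correction, and those of Fosl2 and Jun were 2.41 and 1.17 with spike-in scaling.

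**Figure D3:**
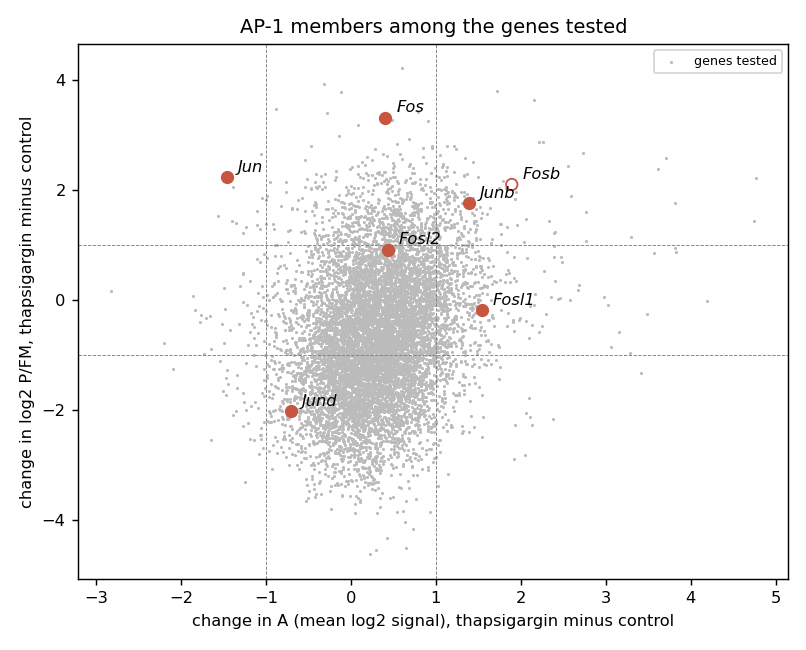
Change in A (mean log2 signal) against change in log2 P/FM, thapsigargin minus control, for the 9431 genes compared (grey) and the AP-1 members (red, Fosb open because its A was under 4.5 in control cells). Dashed lines mark changes of 1 in either direction. Fos and Jun lie at the upper edge of the genes, Jun on the left with a change in A of -1.46, Junb on the upper right and Jund at the lower left.

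For the 5 members with all 4 signals well above background, the genes nearest in pattern were looked up among 6631 such genes, by the distance over log2 P/FM on both arrays and the change in A. Jun had no close match. Its nearest genes were Dusp1, a phosphatase of MAP kinases, Troap, and Cyr61, a matricellular protein, at distances of 0.57, 0.61 and 0.76. Dusp1 had a change of 1.43 in log2 P/FM and -1.40 in A, and Cyr61 one of 1.53 and -1.56. Like Jun, these genes and Troap were higher in the ratio and lower in A. That shared direction follows from choosing the nearest genes by these same values, so it is not a separate result. The nearest genes of Junb were Klf7, Ascc3 and Piga, at 0.18 to 0.24. Those of Fosl1 were Nfe2l1, another leucine zipper factor, Upf1 and Stx11, at 0.06 to 0.16. Irf3, Antxr1 and Phrf1 were nearest to Fosl2, at 0.10 to 0.18, and Rogdi, Fgfrl1 and Sept5 to Jund, at 0.17 to 0.22.

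The proteins with which Fos and Jun proteins can pair were mostly too dim to compare. Of 11 genes for other leucine zipper partners, 3 passed the limit on A, and log2 P/FM was higher by 1 or more in 1 and lower by 1 or more in 2, where 9.5% and 39.9% of all genes were. Atf4, a translational effector of endoplasmic reticulum stress, went from -1.60 to 1.83, a change of 3.42, with a log2 change of 2.50 in P and -0.92 in FM. As measured, Atf4 and Fos were thus alike in a higher P and a lower FM signal, though the log2 P change of Fos was -0.72 with normexp. Jdp2, a repressor that pairs with Jun proteins, changed by -1.48. Atf3, a stress-induced partner of Jun proteins that was picked out after its values were seen, was not well above background in either channel of the control array, and its signals after thapsigargin were 132 in P and 66.2 in FM. They were at least 9.91-fold and 6.61-fold higher than in control cells, or 6.74-fold and 2.76-fold with the detection limit at the 1st percentile of signals well above background, with a log2 P/FM of 1.00 after treatment.

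Of 11 factors that switch on Fos and Jun genes, 7 were compared. In log2 P/FM, 0 were higher and 2 lower by 1 or more, where 9.5% and 39.9% of all genes were. The median change was -0.66 beside -0.69 over all genes. Those lower were Mef2d, an activator of the Jun promoter (-1.47), and Srf, the serum response factor that binds the Fos promoter (-1.43). In both, the FM signal was higher, by 1.21 and 1.53 on the log2 scale.

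The kinases above AP-1 had a median change of -0.71 over 12 of 17 genes. Of these, 1 was higher and 3 lower by 1 or more, where 9.5% and 39.9% of all genes were. Map3k1, which leads to the Jun kinases, was higher by 1.46. The 3 that were lower belong to the ERK branch, with changes of -3.00 for Map2k2, -2.47 for Mapk3 (SD 0.01 over 2 probes) and -1.31 for Map2k1. Genes for the turnover and cofactors of AP-1 proteins had a median change of 0.01 over 8 of 11, with 0 higher and 3 lower, where 9.5% and 39.9% of all genes were. Among those lower was Det1 (-2.38), part of a ubiquitin ligase that acts on c-Jun.

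Among 20 genes that AP-1 is known to drive in fibroblasts, 13 were compared, with 3 higher and 3 lower by 1 or more in log2 P/FM, where 9.5% and 39.9% of all genes were, and a median change of 0.08. The 3 higher were the growth factor Fgf7 (2.06), the cytokine Il6 (1.84) and the DNA methyltransferase Dnmt1 (1.1). Fgf7 resembled Jun in that its FM signal was lower, with a log2 change of -1.57 beside 0.50 in P. Il6 resembled Junb in that P was higher by 2.85 and FM by 1.02. The 3 lower were Tgfb1 (-2.17), Spp1 (-2.17), which encodes osteopontin, and the protease inhibitor Timp1 (-1.69). In A, 3 of the 13 were higher and 1 lower by 1 or more, beside 8.97% and 1.02% of all genes.

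**Figure D4:**
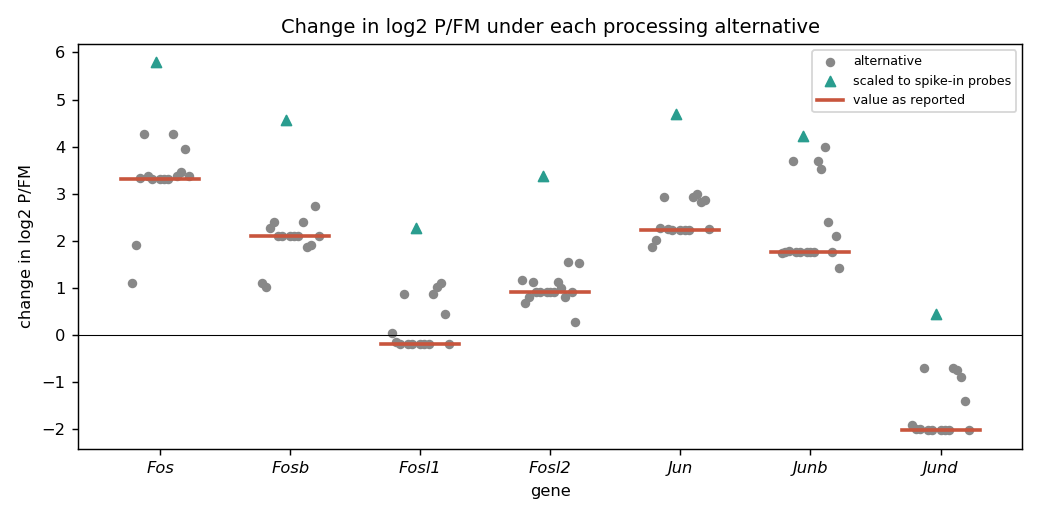
Change in log2 P/FM of each member as reported (red bar) and under every planned processing alternative, single probes included (grey points), with scaling to the spike-in probes as a green triangle. Fos, Fosb, Fosl2, Jun and Junb lie above 0 throughout, Fosl1 lies on either side of 0, and Jund is above 0 at 0.45 with the spike-in scaling only.

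The direction of the members' changes was read against these alternatives. Fos was higher in log2 P/FM by 1.11 to 5.79 in its 18 alternatives, Jun by 1.87 to 4.70 in 17, and Junb by 1.42 to 4.24 in 17, each highest when scaled to the spike-in probes. Fosl1 was above 0 in 7 of 15 alternatives and below 0 in 8. In A, Fosl1 and Junb were higher by at least 1.02 in all of theirs and Jun lower, from -1.93 to -1.18. With normexp, where the median gene itself changed by -1.53 in A, Jun lay only -0.04 from that median. For Fosl2 the mean over probes ranged above 0 throughout, with the first probe at 0.29 as the lowest value.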

How the data were processed

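RNA of NIH3T3 cells was measured on 2 two-colour arrays, 1 per condition, both on 1 slide and read together. Groups were taken from the labels. The deposited intensity values were extracted by the authors with Feature Extraction 10.7.1.1, per the file headers, without normalization. Processed intensity values and a log10 ratio, dye-normalized by that software, were deposited too, as was the authors' table of log2 ratios of P to FM without normalization. Of the values in that table, at least 99.99% equalled, within 0.001, the mean over all spots computed here.

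Signals were mean spot brightness less the median of the local background, raised to 0.5 where lower, the method that the study names. No normalization was applied. The study kept the proportions of RNA between fractions, with 300 ng in total for labelling. By its methods, P held more RNA than FM in control cells, and FM held more than P after stress. Each channel thus had unlike RNA input on the control and thapsigargin arrays, and its changes include that difference. Outlier spots of either array (0.680%) were dropped. Spots were averaged to probes and probes to gene names, and a coding gene name had at least 1 probe with an NM accession. Changes of 1 or more were counted. For a signal not well above background, the bound is taken against the higher of its own value and the lowest signal among probes well above background on that array, probes at the floor of 0.5 left aside. That limit was 13.3 for the P channel of the control array. The Fos spots used lay at 13.5 or higher in that channel without being well above background, so a bound against this limit is not a strict one.

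The members and the gene lists were chosen with earlier results of these data known. Genes other than members were named as the up to 3 largest changes of 1 or more in each direction per list, with all signals well above background, and as the 3 nearest genes in pattern. With 1 array per group no test was made. The steps were tested on simulated data. Alternatives used limma 3.58.1 in R 4.3.3 (normexp with offset 50, loess, quantile) and Python 3.11.15. Positions are those of the files (mm9, NCBI build 37), and RefSeq promoters are on GRCm38.p6, 6 of the 7 members being listed. Arrays have no depth, and precision is limited by having 2 of them.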

Additional observations from a re-analysis of the deposited data

How the results depend on the processing

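No paired analysis was possible because each condition had 1 array. For the same reason no replicate could be left out, and no result has a test to pass or fail. Of 84 values of the counts and medians over the members, 59 lay close to those reported. The number of members higher in log2 P/FM by 1 or more, 3 as reported, was 5 with normexp background correction (7 members compared), the processed signals of the scanner software (7 compared), spike-in scaling and loess. The number lower was 1 as reported, where 39.9% of all genes were. It was 0 with the processed signals (24.9% of all genes), the software's log ratio (24.9%), spike-in scaling (0.355%), loess (19.6%) and quantile normalization (23.4%). The median change in log2 P/FM, 1.34 as reported, was 3.81 with spike-in scaling, 2.40 with the processed signals, 2.03 with the software's log ratio, 2.01 with loess, 1.96 with quantile normalization and 1.97 after centring. The number of members lower in A by 1 or more, 1 as reported, was 4 with normexp and 2 with the processed signals, quantile normalization, centring of A and quantile normalization of A after loess. The share of all genes lower in A was not counted under these alternatives. The median change in A, 0.42 as reported, was -1.13 with normexp, 0.70 with spike-in scaling, 0.017 with quantile normalization, 0.049 after centring of A and 0.062 with quantile normalization of A after loess. The cause was not tested.

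Normexp turned the dim members around in single channels and in A. It gave changes of -0.72, -0.59 and -0.55 in the log2 P signal of Fos, Fosb and Fosl2, -1.70 in the log2 FM signal of Fosb, and -1.28, -1.15 and -1.13 in the A of Fos, Fosb and Fosl2, where the median A of all genes also changed by -1.53. Spike-in scaling gave Jund a log2 P/FM of 0.81 with thapsigargin and a change of 0.45. The median over the leucine zipper partners, -1.30 over 3 genes, was 0.44 with normexp (11 genes), 1.17 with spike-in scaling, 0.97 with A above 5.5 or all signals above background (2 genes) and 0.31 in the authors' value table (7 genes). With the detection limit set at the 1st percentile of signals well above background, an alternative chosen after seeing the data, the change in log2 P/FM was at least 3.20 for Fos and 1.26 for Fosb. Single spots of Jun gave changes from 2.13 to 2.40. Signals near background limit Fos, Fosb and Fosl2, whose changes in log2 P/FM kept their direction under each background method tried but not their size.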
